A study of Mus musculus with 4 samples.

Results

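Type II cadherins are adhesion molecules of the cell surface, and 10 of their genes that border long stretches without other protein-coding genes were examined for H3K9me3 in mouse muscle stem cells. The members were taken by name and were Cdh6, Cdh7, Cdh8, Cdh9, Cdh10, Cdh11, Cdh12, Cdh18, Cdh19 and Cdh20, which are 10 of the 21887 protein-coding genes placed on the main chromosomes. H3K9me3, trimethylation of lysine 9 on histone H3, was mapped by native ChIP-seq (immunoprecipitation of nuclease-cut, unfixed chromatin) in cells isolated magnetically from muscle and cultured. Both cultures carried the genotype Setdb1lox/lox with a Pax7-driven, tamoxifen-inducible Cre, written Pax7GakaCreERT2 for the control sample and Pax7GakaCreERT3 for the treated sample. The control culture received ethanol and the other culture 4-hydroxytamoxifen, which turns the Cre on, and the immunoprecipitation followed 72 h later. Each condition had 1 H3K9me3 library, and the strain, sex and age of the animals are not given in the sources used here. Ethanol-treated cells also carried the loxP-flanked Setdb1 and the Cre, and the extent of deletion in the treated culture was not measured by these data. Since each library came from a culture of many cells, a mark in fewer cells and less of the mark per cell cannot be told apart.

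Classical cadherins bind like molecules on a neighbouring cell through their outer domains, and their tails attach to actin through catenins. The type II subfamily is used widely in the nervous system, where different neurons carry different combinations. Setdb1 encodes an enzyme that trimethylates H3K9, a mark bound by HP1 proteins and typical of silenced repeats and gene-poor chromatin. The study asked about the role of this enzyme in muscle stem cells. For these genes the comparison is between members used by neurons and Cdh11, the cadherin of mesenchyme and bone-forming cells.

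The data were a list of broad peaks for each condition, called the control list and the deleted list here. They held 105709 and 113503 peaks on the main chromosomes and covered 133 Mb and 134 Mb. Coverage is the percent of bases of a region that lie in peaks. It was taken over each gene plus 5 kb on both ends (the gene window) and over 500 kb on each side (the flanks). Read depth is unknown, and with 1 library per condition no value below has a replicate error and no difference was tested. Among 8 genes that mark muscle stem cells, 7 had a window without any peak (control) and 8 (deleted). All 5 Schwann cell markers, the glia of peripheral nerve, had windows without a peak in both lists. The same held for 5 of 7 mesenchyme, 1 of 5 neuron and 2 of 3 endothelium markers in each list, and for 2 and 1 of 3 immune markers. Of all protein-coding genes, 71.0% (control) and 69.9% (deleted) had a window without a peak. The mark does not measure expression, so these counts do not show which cells the cultures held.

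The 10 genes spanned the whole range from no peak to a window covered at 31.4% of its bases, and the order was almost the same in both lists. In the control list 4 members were covered at 10% or more, 3 lay between 1% and 10%, and 3 were under 1%. The deleted list held the same numbers, 4, 3 and 3, and the same genes stood in each class. Of all protein-coding genes, 8.39% reached 10% (control) and 8.74% (deleted), and the 4 of 10 members compare with these shares. Among the 1254 protein-coding genes beside a gap of at least 500 kb, 134 (10.7%) and 144 (11.5%) reached that level. The members' median window was covered at 5.74% and 5.38%, against a median of 0% for all protein-coding genes and for those beside long gaps. Across the 10 members, Spearman's rho between the lists was 0.94 for windows, given as a description of genes that partly share chromosome regions.

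**Figure D1:**
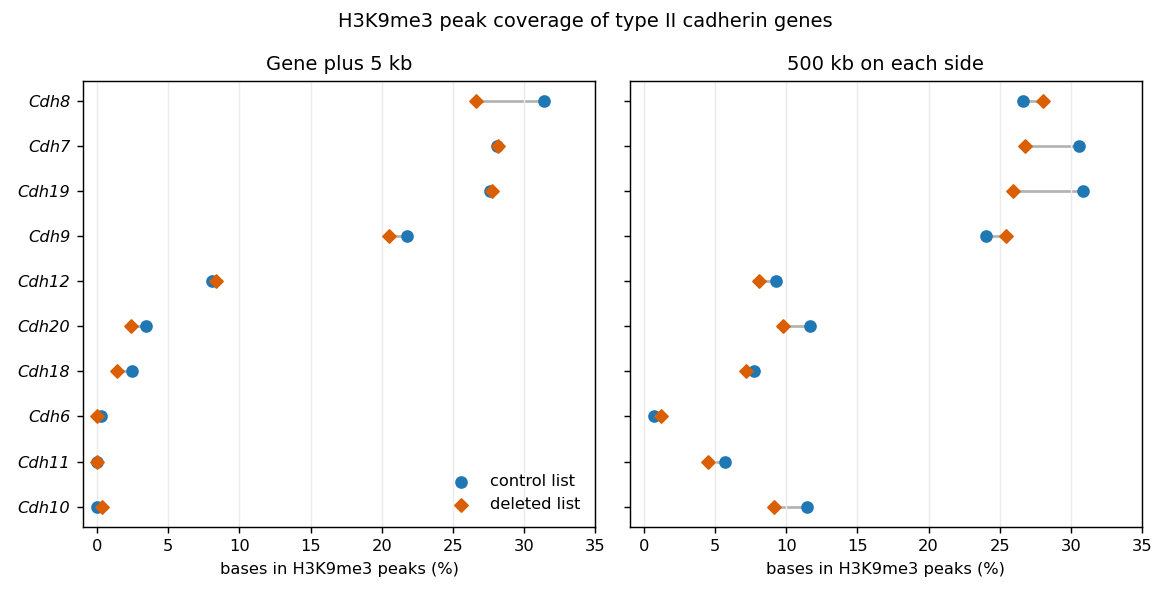
Percent of bases in H3K9me3 peaks for each of the 10 genes, with the gene plus 5 kb on the left and 500 kb on each side on the right, and 1 point per gene for the control list (circles) and the deleted list (diamonds). Cdh8, Cdh7, Cdh19 and Cdh9 lie above 20% in both lists and both panels, while Cdh6, Cdh10 and Cdh11 have gene windows under 1%.

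The most heavily covered gene in the control list was Cdh8, a cadherin of brain neurons, on chromosome 8 from 99024471 to 99417666 (mm10). Its window held 80 control peaks and 71 deleted-list peaks and was covered at 31.4% (control) and 26.6% (deleted). The control value stood above that of 97.0% of protein-coding genes and 98.0% of those beside long gaps. Cdh8 was the member with the largest window difference between the lists, 4.76 points lower in the deleted list. Fold comparisons add 0.5 points to both values, and on that scale the deleted-to-control ratio of Cdh8 was 0.85. The difference was not spread evenly: with the gene in 5 equal segments from the lower coordinate, segment 4 was covered at 42.7% and 23.8%, and segment 3 at 27.9% and 36.5%.

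Cdh7, used in the nervous system, and Cdh19, found in the neural crest lineage that gives Schwann cells, lie near each other on chromosome 1. Cdh7 runs from 109982237 to 110145272 and Cdh19 from 110888002 to 110977601. The Cdh7 window was covered at 28.1% and 28.2%, with 40 and 39 peaks. The Cdh19 window was covered at 27.6% and 27.7%, with 23 and 25 peaks. The totals of both genes differed by under 0.2 points between the lists, but the positions of the peaks differed. In Cdh7, 18.0 kb lay in peaks of both lists, which was 37.0% of its covered bases (control) and 36.8% (deleted). In Cdh19 the shared length was 9.90 kb, and segment 4 of 5 was covered at 9.06% (control) and 27.4% (deleted). With peaks of the authors' −log10 q of 2 or more, Cdh19 was covered at 10.4% and 1.15% and Cdh7 at 5.35% and 1.36%, in lists cut to 19912 control and 13039 deleted-list peaks. At 3 or more, Cdh7 had no covered base in either list and Cdh19 had 0.42% and 0%.

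Cdh9, which takes part in forming particular synapses of the hippocampus, lies on chromosome 15 from 16728550 to 16857138. Its window was covered at 21.8% and 20.5%, with 28 and 25 peaks. In both lists the coverage was highest in segment 4 of 5, at 34.3% and 32.3%. The peak of highest fold in the deleted list, from 16811275 to 16812018, had the authors' fold of 3.39 and overlapped a control peak. The highest in the control list, from 16764800 to 16765099 with a fold of 3.02, had no partner.

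Between the heavily and the sparsely covered genes stood Cdh12, Cdh20 and Cdh18. Cdh12, a brain cadherin whose gene is 1150 kb long by the RefSeq table, lies on chromosome 15 from 20448878 to 21598421. Its window held 87 and 92 peaks and was covered at 8.05% and 8.39%. The coverage was not even: from the lower coordinate, the 5 segments of the gene were covered at 16.4%, 10.7%, 0.98%, 8.60% and 3.68% in the control list. The deleted list gave 15.1%, 11.2%, 1.19%, 10.2% and 4.63%, so segment 3 was the lowest in both. Cdh20, another neural member, lies on chromosome 1 from 104768340 to 104995481. Its window was covered at 3.44% and 2.37%, with 10 and 6 peaks. Cdh18, also a brain cadherin, lies on chromosome 15 from 22548898 to 23477491, and its window was covered at 2.43% and 1.41%, with 26 and 15 peaks. The Cdh18 peak of highest fold was nearly at the same place in both lists, at 22744166 to 22744843 (control, the authors' fold 3.92) and 22743752 to 22745895 (deleted, fold 3.18). Folds of separate lists are not compared.

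Cdh6, Cdh10 and Cdh11 were almost free of peaks. Cdh6, found in kidney and in neurons, lies on chromosome 15 from 13028699 to 13176407. It had 1 control peak, from 13144455 to 13144942, which covered 0.31% of its window, and no peak in the deleted list. Cdh10, used by neurons and by vessels of the brain, lies on chromosome 15 from 18818869 to 19016206. It had no control peak and 2 peaks in the deleted list, which covered 0.32% of its window. Cdh11 lies on chromosome 8 from 102632095 to 102785493 and had no peak in its window in either list. A window without a peak was common: 71.0% of all protein-coding genes had none (control) and 69.9% (deleted), and 52.4% and 53.0% of those beside long gaps.

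The neuronal members did not form a class apart from Cdh11. Since the Cdh11 window was at 0%, standing above it means only having a peak, which held for 7 of 8 neuronal members in each list, without Cdh10 in the control list and without Cdh6 in the deleted list. Their windows ranged up to 31.4% (control) and 28.2% (deleted), with a lowest value of 0% in each. Only Cdh7, Cdh8 and Cdh9 of them reached 10%. In the flanks, 7 of 8 neuronal members lay above Cdh11 in both lists, and Cdh6 lay below it. Cdh19, not counted as neuronal, also lay above Cdh11. The Cdh11 flanks stood above those of 83.7% (control) and 77.7% (deleted) of all protein-coding genes. Cdh11 is a single gene, so no test of neuronal against mesenchymal members was possible.

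Expression was not measured here, and the start sites offer a closer view of where peaks lay. RefSeq (GRCm38.p6, with the mm10 chromosomes) gave 10 promoter sequences for 8 members, each with 250 bases before and 50 bases after the start. Those of Cdh11 and Cdh19 were not matched, and the start sites of Cdh12 and Cdh18 lie 487 kb and 441 kb from the nearest end of the gene, against at most 2.73 kb for the other members. None of the 10 promoters touched a peak in either list, against 1.82% and 1.83% of the 21263 promoters of protein-coding genes that did. In Cdh7, Cdh8 and Cdh9, whose windows were covered above 20%, the nearest peak to a start lay nearer than in the other members with a promoter entry. Dense peaks shorten this distance anywhere in a gene, and whether the starts differed from the rest of the gene was not tested. For the first Cdh7 start the distance was 1.55 kb (control) and 1.44 kb (deleted), for Cdh9 1.89 kb and 2.66 kb, and for Cdh8 6.52 kb and 2.72 kb. For Cdh10 it was 30.4 kb and 26.6 kb, and for Cdh6 27.2 kb and 75.0 kb. Within 5 kb of the start, 32.7% and 23.5% of bases lay in peaks for the first Cdh7 start, 16.2% and 8.76% for Cdh9, and 0% and 13.5% for Cdh8. The other members with a promoter entry had no peak there in either list. The distances for Cdh12, Cdh18 and Cdh20 lay at 10.2 to 28.0 kb (control) and at most 16.1 kb (deleted).

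The promoters of 3 covered genes and of Cdh10, almost free of peaks, are shown to set their sequences side by side. The sequences run 5′ to 3′ on the strand of the gene, with each CG dinucleotide in capitals. They lie at chr1:109982650-109982949 (plus strand, the first of 3 Cdh7 starts), chr8:99416422-99416721 (minus strand), chr15:16728665-16728964 (plus strand) and chr15:18820079-18820378 (plus strand).
Cdh7: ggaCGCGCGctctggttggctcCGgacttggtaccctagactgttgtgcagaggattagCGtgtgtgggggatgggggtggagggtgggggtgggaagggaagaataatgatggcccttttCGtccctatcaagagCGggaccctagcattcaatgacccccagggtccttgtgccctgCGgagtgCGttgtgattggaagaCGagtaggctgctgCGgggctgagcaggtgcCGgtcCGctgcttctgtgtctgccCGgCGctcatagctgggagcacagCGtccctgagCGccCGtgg
Cdh8: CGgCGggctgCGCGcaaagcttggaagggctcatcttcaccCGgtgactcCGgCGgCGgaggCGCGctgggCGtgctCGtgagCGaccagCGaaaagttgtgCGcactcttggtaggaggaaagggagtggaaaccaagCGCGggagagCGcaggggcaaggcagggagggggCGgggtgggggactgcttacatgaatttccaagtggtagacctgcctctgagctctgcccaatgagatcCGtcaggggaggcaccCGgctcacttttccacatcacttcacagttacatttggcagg
Cdh9: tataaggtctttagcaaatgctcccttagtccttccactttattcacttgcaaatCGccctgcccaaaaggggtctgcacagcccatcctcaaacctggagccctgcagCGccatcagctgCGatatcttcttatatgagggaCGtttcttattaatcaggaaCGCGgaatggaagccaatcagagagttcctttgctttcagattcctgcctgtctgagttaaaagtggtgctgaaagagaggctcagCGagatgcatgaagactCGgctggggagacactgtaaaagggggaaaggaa
Cdh10: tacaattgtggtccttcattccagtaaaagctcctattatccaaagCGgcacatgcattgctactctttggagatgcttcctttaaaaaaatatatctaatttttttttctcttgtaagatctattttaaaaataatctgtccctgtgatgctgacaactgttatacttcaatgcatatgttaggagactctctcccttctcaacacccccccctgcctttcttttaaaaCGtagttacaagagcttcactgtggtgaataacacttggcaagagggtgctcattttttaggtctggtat

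The CG content of the starts varied among covered genes. The Cdh8 promoter held 21 CG dinucleotides and was 62.3% G and C, the first Cdh7 promoter held 18 and was 62.7%, and the Cdh9 promoter held 8 and was 48.7%. The Cdh10 promoter, in a gene with hardly a peak, held 2 and was 37.7% G and C, the fewest of the 10. That of Cdh6, also almost free of peaks, held 8 and was 53.0%. The other starts held 9 (Cdh12), 12 (Cdh18) and 18 (Cdh20), and the further Cdh7 starts 19 and 4. The median over the promoters of protein-coding genes was 13, and 94.6% of all 32851 promoters in the table held at least 1 CG. A CG dinucleotide reads the same on both strands, so its count does not depend on the strand, and the count describes these windows alone.

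The flanks carried more of the mark than the gene windows for most low members. In order of gene coverage in the control list, flanks were covered at 26.7% and 28.0% for Cdh8, 30.6% and 26.8% for Cdh7, 30.9% and 25.9% for Cdh19, and 24.1% and 25.4% for Cdh9. The 4 genes with covered windows also had flanks above 24% in both lists. Flank values were 9.30% and 8.09% for Cdh12, 11.7% and 9.79% for Cdh20, and 7.72% and 7.18% for Cdh18. For the genes almost free of peaks they were 0.71% and 1.21% for Cdh6, 5.68% and 4.53% for Cdh11, and 11.5% and 9.12% for Cdh10. Cdh6 was the only member whose gene and flanks were both near 0. In the control list 6 of 10 members had flanks at 10% or more, against 10.3% of protein-coding genes, and in the deleted list 4, against 11.0%. Cdh20 and Cdh10 made that difference, just above the level by the control list and just below it by the deleted list. The members' median was 11.6% and 9.45%, against 1.36% and 1.55% over all protein-coding genes and 2.37% and 2.52% over those beside long gaps. The flanks of Cdh7 and Cdh19 shared 257 kb and those of Cdh12 and Cdh18 49.5 kb, so these values are not independent.

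**Figure D2:**
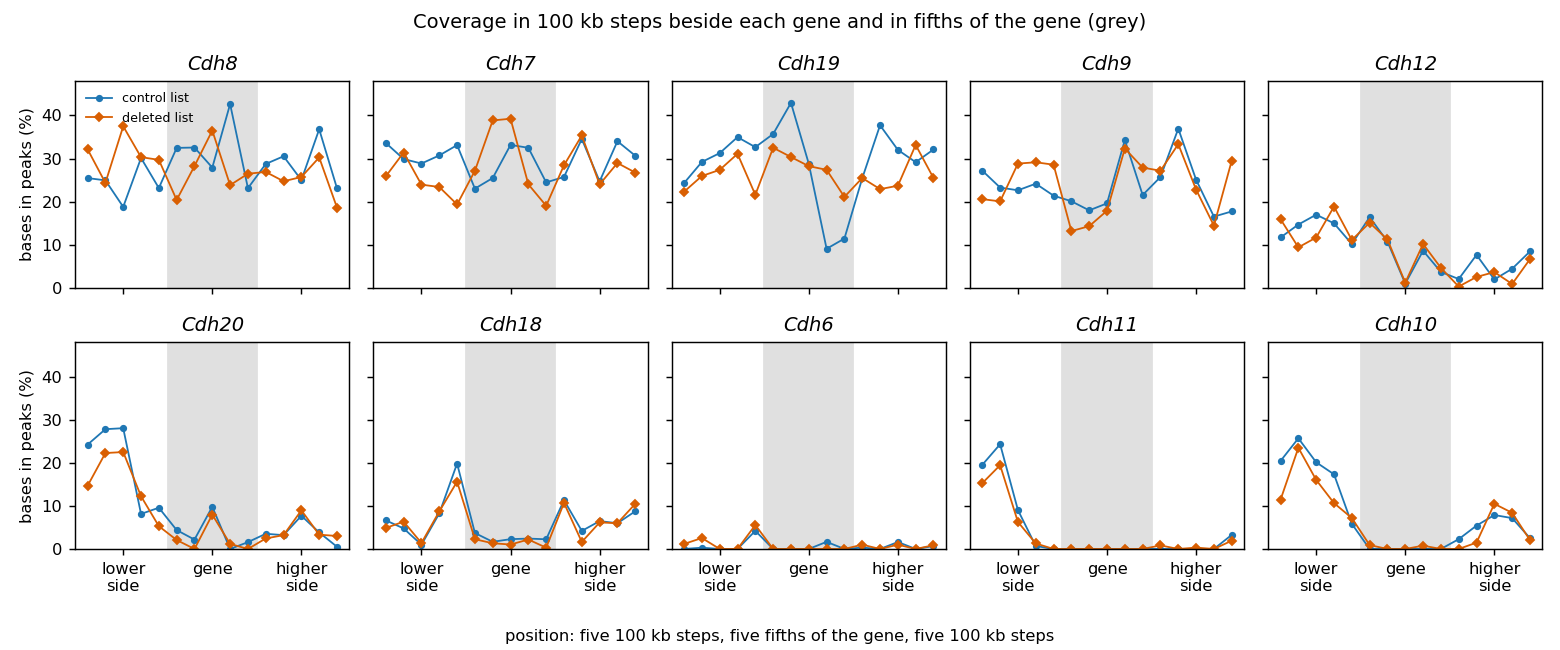
Percent of bases in peaks for each gene in 5 steps of 100 kb on its lower-coordinate side, in 5 equal parts of the gene (grey) and in 5 steps of 100 kb on its higher side, with lines for the control list (circles) and the deleted list (diamonds). Cdh10, Cdh11 and Cdh20 have covered steps on the lower side and little in the gene, and Cdh6 is low throughout.

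Several sparsely covered genes stood at the edge of a covered stretch, and in both lists the lower-coordinate side was the more covered for Cdh10, Cdh11, Cdh12 and Cdh20. On the lower-coordinate side, the 500 kb next to Cdh11 were covered at 10.7% and 8.45%, and on the higher side at 0.65% and 0.61%. For Cdh20 the lower side stood at 19.6% and 15.4% and the higher at 3.76% and 4.19%. For Cdh10 the lower side stood at 17.9% and 13.8% and the higher at 5.05% and 4.48%, and for Cdh12 at 13.7% and 13.4% against 4.90% and 2.80%. Counting outward in steps of 100 kb from Cdh11, the first step covered at 10% or more began 300 kb away on the lower side in both lists. No step within 6 Mb reached that level on the higher side by the control list, while the deleted list had its first 2200 kb away. From Cdh10 the first such step on the lower side began 100 kb away in both lists. On its higher side it began 1000 kb away by the control list but 200 kb away by the deleted list. Cdh11 itself lay in a stretch without any peak that reached 178 kb below the gene and 408 kb above it by the control list, and 152 kb below and 53.2 kb above by the deleted list.

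Most of the long gaps beside these genes were themselves among the more covered of their kind. There were 711 gaps of at least 500 kb between protein-coding genes, with a median length of 0.86 Mb and a median coverage of 2.85% (control) and 2.95% (deleted). The members bordered 12 of them, with a median length of 1.92 Mb and median coverage of 20.6% and 19.6%. Coverage was 10% or more in 8 of these 12 gaps in both lists, against 25.2% and 27.0% of all 711, which were not matched for length. The lowest, from Cdh11 to Cdh5, was covered at 0.91% and 0.79%, below the median of all 711. The longest was the 4.28 Mb between Cntnap5b and Cdh20, ranked 4 by length, which was covered at 24.3% and 22.6%. Only 2 sides were not bordered by such a gap: Drosha lay 93.4 kb below Cdh6, and Rnf152 281 kb above Cdh20.

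Along chromosome 15 the coverage changed within gaps and not only at genes. Between Cdh6 and Cdh9, a gap of 3.55 Mb, the 20% of it next to Cdh6 was covered at 0.74% and 0.94% and the 20% next to Cdh9 at 26.3% and 24.8%. Between Cdh9 and Cdh10, a gap of 1.96 Mb, the 20% next to Cdh9 stood at 26.6% and 24.9% and that next to Cdh10 at 17.4% and 14.1%. Beyond Cdh10 the 1.43 Mb gap to Cdh12 stood at 5.04% and 3.37% in the 20% next to Cdh10 and at 14.5% and 13.9% in the 20% next to Cdh12. The gaps from Cdh12 to Cdh18 and from Cdh18 to Basp1, a gene of neurons and other cells, were covered at 6.17% and 4.84%, and at 4.70% and 4.36%.

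On chromosome 8, 1 gap joined a covered neuronal member to the uncovered Cdh11. The 3.21 Mb between Cdh8 and Cdh11 were covered at 26.1% and 22.5%, with 29.9% and 26.0% in the 20% next to Cdh8 and 14.7% and 12.1% in the 20% next to Cdh11. On the far side of Cdh11, the 1.32 Mb up to Cdh5, the cadherin of blood vessel endothelium, were covered at 0.91% and 0.79%. On chromosome 1 the gaps around Cdh7 and Cdh19 were covered throughout. They stood at 27.6% and 25.1% from Serpinb8 to Cdh7, at 30.7% and 27.4% from Cdh7 to Cdh19, and at 29.4% and 23.1% from Cdh19 to Dsel.

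**Figure D3:**
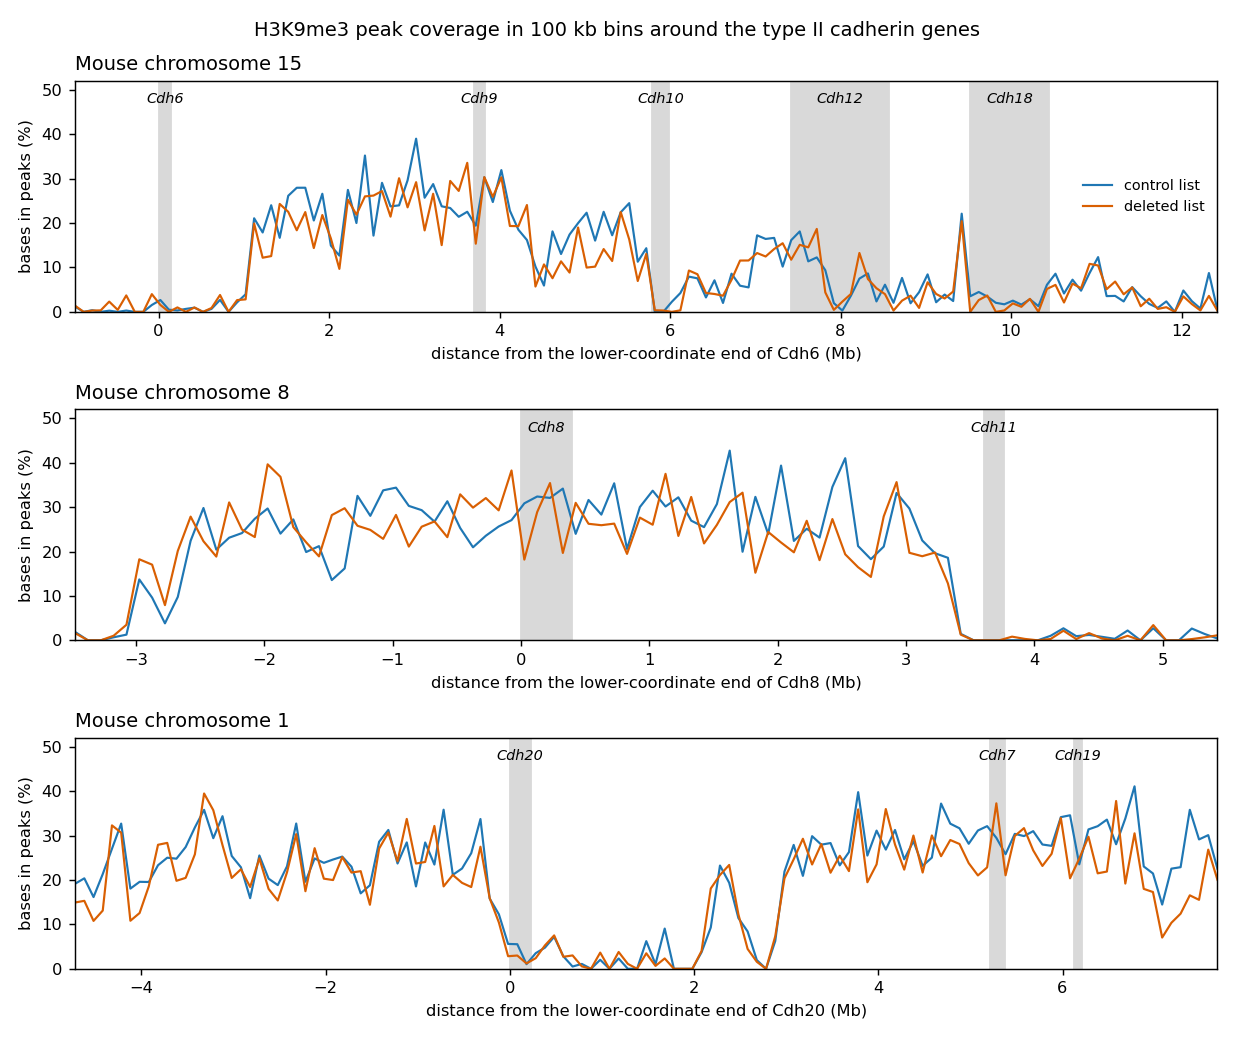
Percent of bases in peaks in bins of 100 kb along 3 chromosome regions, by distance in Mb from the lower-coordinate end of Cdh6, Cdh8 and Cdh20, with the control list in blue, the deleted list in orange and the genes in grey. Cdh7, Cdh8, Cdh9 and Cdh19 sit inside covered stretches, while Cdh10, Cdh11 and Cdh20 sit where coverage drops at the end of one.

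Between the lists, few members differed by the fold used. With 0.5 points added to both values, a difference of at least 1.5-fold in gene window coverage was found for 3 members. Cdh6 and Cdh18 were lower in the deleted list, with ratios of 0.62 and 0.65, and Cdh10 was higher, with a ratio of 1.63. All 3 were sparsely covered, and for Cdh6 and Cdh10 the difference rested on 1 and 2 peaks. Of all protein-coding genes, 10.2% were lower and 11.6% higher by that fold, beside 2 and 1 of 10 members. Those shares include 14131 of 21887 genes whose windows were covered equally in both lists, which cannot pass. Among the 6142 genes at 1% or more in either list, 62.7% passed in either direction, and Cdh18 was the only member to do so. These genes were not matched to the members for length or coverage. With peaks of −log10 q of 2 or more, the Cdh18 window had more coverage in the deleted list (0.57%) than in the control list (0.33%), a difference of 0.24 points. In the flanks no member passed the fold in either direction, against 3.74% of protein-coding genes that were lower and 10.4% that were higher.

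Smaller differences leaned to the control list. In the flanks, 7 of 10 members were covered less in the deleted list and 3 more (Cdh6, Cdh8 and Cdh9), with a median difference of -1.18 points. Over all protein-coding genes 33.6% were covered less, with a median of 0.15 points. In gene windows 5 were covered less, 4 more and Cdh11 equally, with a median of -0.15 points against 0 for all genes. Of all genes, 16.7% had windows covered less and 18.7% more, and most were equal in both lists. With the lists cut to the same number of peaks, 8 windows were covered less and 1 more (Cdh10), with a median of -1.03 points. There 17.3% of all genes had windows covered less, and Cdh19 stood at 27.6% (control) and 19.9% (deleted). The flank differences of Cdh19 and Cdh7, at -4.98 and -3.84 points, lay outside the middle 90% of genes beside long gaps, which ran from -2.81 to 3.66 points. The window difference of Cdh8 lay outside the corresponding range of -4.60 to 4.66 points. Most genes beside long gaps were less covered than these 3 members. Among genes whose coverage averaged 10% or more over both lists, a class chosen after seeing the data, the middle 90% was wider. It ran from -8.77 to 6.12 points for flanks and from -31.1 to 26.0 points for windows, and the differences above lay inside it. That class was not matched to the members for gene length. Of the 12 long gaps beside members, 11 were covered less in the deleted list, the exception being that from Got2 to Cdh8 (22.7% and 24.8%), whereas 44.7% of all 711 gaps were covered less. These gaps hold many of the bases of the members' flanks, so the gap and flank counts are not independent. The deleted list covered 0.925 times as much of chromosome 1 as the control list, 1.04 times as much of chromosome 8 and 1.06 times as much of chromosome 15. With each value scaled to the coverage of its chromosome, the flank differences of Cdh7 and Cdh19 were -1.16 and -2.04 points, both inside the scaled range of -2.36 to 2.65 points. That of Cdh10 was then -3.23 points, outside it. On this scale 8 members had lower flanks, against 37.8% of all genes, and the members' median was -1.09 points. Of the 12 gaps 10 were lower, against 51.6% of all 711.

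**Figure D4:**
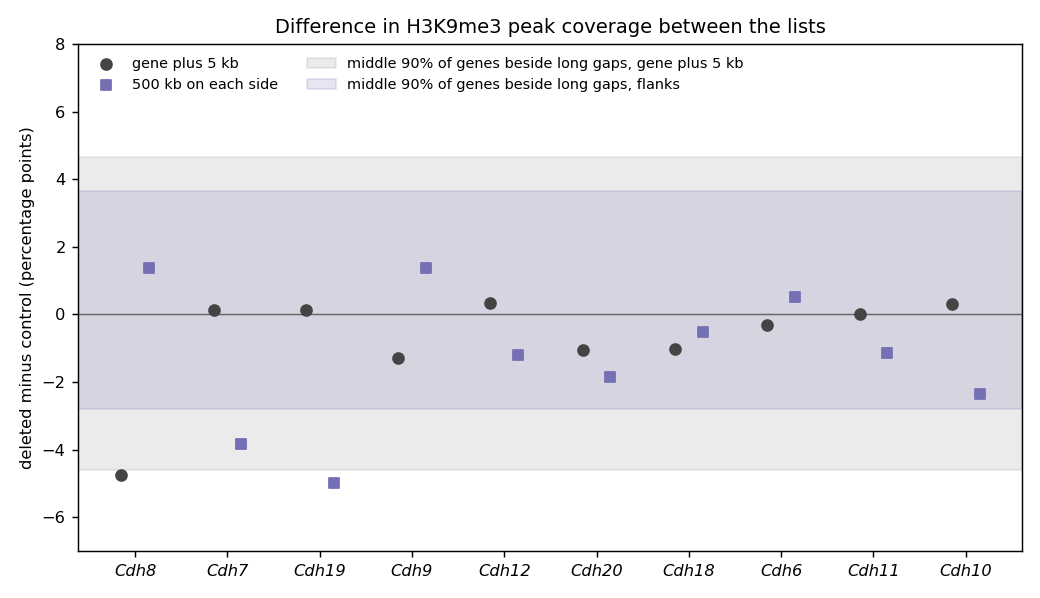
Deleted minus control coverage in percentage points for each gene, for the gene plus 5 kb (circles) and 500 kb on each side (squares), with bands for the middle 90% of protein-coding genes beside a gap of at least 500 kb. Before scaling to the chromosome, the window of Cdh8 and the flanks of Cdh7 and Cdh19 lie below their bands, and the other points lie within them.

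The peaks in the member windows resembled the lists in strength, and fewer than 50% of them had a partner. The windows held 295 control peaks with a median of the authors' fold of 2.52, where the whole list had 2.57, and 275 deleted-list peaks with 2.51, where the whole list had 2.59. Of the control peaks 16.6% reached −log10 q of 2, against 18.8% of the list, and of the deleted-list peaks 9.09% against 11.5%. A peak of the other list overlapped 133 control peaks, 45.1% (95% Wilson interval 39.5 to 50.8%), and 135 deleted-list peaks, 49.1% (43.2 to 55.0%). The intervals cover counting error only. The corresponding shares over the whole lists were 53.0% and 50.1%. The heavily covered members had higher shares: of control peaks it was 57.5% in Cdh8, 52.5% in Cdh7, 60.9% in Cdh19 and 14 of 28 in Cdh9, but 35.6% in Cdh12, 23.1% in Cdh18 and 1 of 10 in Cdh20. The shares moved with the percent of bases covered, whose part in them was not tested. Peaks with a partner were wider, with medians of 1397 bp and 694 bp without a partner (control), and 1219 bp and 691.5 bp (deleted).

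No other classical cadherin was covered at 10% or more, although Cdh4 came near in the deleted list. The 3 remaining type II genes, Cdh5, Cdh22 and Cdh24, had no peak in the control list, and Cdh22 alone had one in the deleted list, at 0.28% of its window. Cdh24 lies on chromosome 14, which was covered at only 0.37% and 0.31% as a whole. Of 5 type I cadherins, Cdh1 of epithelia, Cdh2 of neurons and muscle, and Cdh15, the M-cadherin of muscle stem cells, had no peak in either list. Cdh3 was covered at 1.26% and 2.17%, and Cdh4, found in the retina and brain, at 4.54% and 8.67%. The Cdh4 value in the deleted list was above the members' median of 5.38%. Among 12 other genes of the superfamily, 5 reached 10% (control) and 3 (deleted), and all of those were desmosomal cadherins clustered on chromosome 18. Of these Dsg1a had the highest value and the largest positive difference, at 14.3% and 18.4%, and Dsc1 the largest negative one, at 10.7% and 4.81%. Dsg2 was covered at 11.5% and 12.1%, Dsg3 at 13.2% and 13.2%, and Dsg4 at 10.8% and 4.96%.

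The catenins and other partners that link cadherins to actin or to desmosomes were no more often without peaks than other genes. Of 13 such genes, 7 (53.8%) had no peak in either list, against 71.0% and 69.9% of all protein-coding genes, among them Ctnnb1, which encodes beta-catenin. Ctnna2, the alpha-catenin of neurons, was covered at 10.2% and 5.54%, the largest negative difference of the group, and was the only gene to reach 10%. It lies on chromosome 6, where the deleted list covered 0.504 times as much as the control list. Ctnnd2, the delta-catenin of neurons, had the largest positive difference, at 5.88% and 9.90%. It lies on chromosome 15 with 5 of the 10 members.

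Genes outside the family were ranked by how near their values lay to the members' median. The median window, 5.74% and 5.38%, lay between Cdh12 (8.05% and 8.39%) and Cdh20 (3.44% and 2.37%). Nearness to it is therefore not likeness to any single member. Likeness was the distance in percentage points over 4 values, the window and flank coverage in each list, among 2408 genes of at least 100 kb outside the family. The nearest were Cngb3, a channel subunit of cone photoreceptors, then Ptprd, a receptor phosphatase of neurons, at 2.59 points, and Lsamp, a neuronal adhesion gene, at 2.63 points.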

How the data were processed

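H3K9me3 peak lists of 1 control and 1 deleted library were analysed, and the 2 input libraries were not used. Per the labels' protocols, 8 µg of chromatin digested by micrococcal nuclease went into each immunoprecipitation. The build was mm10 and the tools included ChIPseeker 1.30.3, MACS2 and BWA 0.7.17-r1188, per the submitters' processing notes. The MACS2 settings, the use of input and any pooling are not given in the sources used here. The deposited lists give each peak's fold enrichment, a linear ratio, and its −log10 p-value and −log10 q-value as the authors' caller wrote them. The replicate number in the peak names differs from that in the labels, so lists were assigned by condition.

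Coverage of intervals was computed with Python 3.11.15, pandas 2.3.3 and numpy 2.4.6, after a check on simulated peaks, and intervals with scipy 1.17.1. Genes and promoter sequences came from RefSeq tables of GRCm38.p6, in which 10 of 10 members were found among the genes and 8 among the promoters. Sides are named by coordinate, since strand was not matched for all members. The members and gene lists were chosen with earlier results of these data known. Named were all members, their neighbours, related genes covered at 10% or more or of largest difference in their list, and the 3 genes nearest to the members' median. Alternatives covered peak threshold, list size, joining, window and flank size, flank content, chromosome level, fold and overlap rule.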

Additional observations from a re-analysis of the deposited data

How the results depend on the processing

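Of 128 alternative values for 16 summary results, 80 stayed within 1.5 times (0.5 points for a difference, the Wilson interval for a share) and 48 did not. Of 170 values for single genes, 77 stayed within 0.5 points and 92 did not. The remaining 1 turned sign after passing the fold, Cdh18 at 0.24 points with −log10 q of 2 or more. Sign changes of genes not past the fold were counted only by size. The Cdh9 window, for example, stood at -1.28 points in the full lists and 1.64 points with −log10 q of 2 or more. Stricter thresholds leave fewer peaks and joining lengthens them, and for other changes the cause was not tested. Leaving out a replicate was not possible. No paired analysis was possible because there was a single library for each condition. Depth is unknown, which limits every comparison between the lists.

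At −log10 q of 2 or more, median windows were 1.13% in the control and 0.78% in the deleted list and median flanks 2.29% and 1.63%. There 1 and 0 members had windows at 10%, 0 and 0 had flanks at 10%, 6 windows (5 lower) and 3 flanks passed the fold, and the median flank difference was -0.65 points. At 3 or more, windows were 0% and 0%, flanks 0.057% and 0%, no member reached 10%, 3 and 1 members lay above Cdh11, 3 flanks passed the fold, and the flank difference was -0.057 points. Passing the fold in windows were 12.2% of all genes at 2, 2.51% at 3 and 21.8% in the full lists. In flanks it was 22.7% at 2, 12.5% at 3 and 14.2% in the full lists. With joined peaks it was 24.8%, and with peaks at or above the median fold 18.2%. With peaks joined within 5 kb, windows were 12.1% and 11.3%, flanks 25.5% and 20.3%, 9 members had deleted-list flanks at 10%, and the window difference was -0.98 points. With peaks at or above the median fold, windows were 3.19% and 2.05%, flanks 6.38% and 5.22%, 1 member had a deleted-list window and 3 had control flanks at 10%, 2 flanks passed the fold, and differences were -0.74 points for windows and -0.049 for flanks. The window difference was -1.03 points with lists cut to equal length and -1.13 with 20 kb around the gene. At 2-fold 0 windows passed, against 15.35% of all genes. For genes at 1% or more in either list, the fold was that of the main comparison and not 2-fold. This set leaves out Cdh6, Cdh10 and Cdh11. In it 1 member window passed the main fold, against 62.7% of 6142 genes. Peaks with a partner were 23.7% and 30.9% when 50% of the peak had to overlap, 83.4% and 89.1% within 5 kb, and 65.3% and 64.0% when counted at −log10 q of 2 or more. Members with lower flanks in the deleted list numbered 5 to 10 of 10 over these settings, and members with lower windows 3 to 8. Where computed for all genes, 30.5% to 56.4% had lower flanks and 2.20% to 23.9% lower windows. The 10 of 10 came at −log10 q of 2 or more, where the share of all genes with lower flanks was also highest, at 56.4%.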

Other observations

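Only values with no place in the comparisons are added here. Among all 2337 protein-coding genes whose flanks averaged 10% or more over both lists, a class chosen after seeing the data, 40.7% were covered less in the deleted list, with a median difference of 0.82 points. The 6 members in that class were Cdh7, Cdh8, Cdh9, Cdh10, Cdh19 and Cdh20, of which 4 were covered less, with a median of -2.11 points. Among the 185 long gaps that averaged 10% or more, 54.6% were covered less, with a median of -0.57 points. Between the 10 members, Spearman's rho of window and flank coverage was 0.81 (control) and 0.90 (deleted), over genes that share libraries and partly flanks. For window coverage and gene length in the control list it was -0.01.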
